A study of Bos taurus with 15 samples.

Results

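The 10 genes described here mark smooth muscle and the mural cells of vessels: *SMTN*, *ACTA2*, *ACTG2*, *MYH11*, *TAGLN*, *CNN1*, *MYLK*, *LMOD1*, *PDGFRB* and *RGS5*. They were taken by symbol from the 13896 genes of the deposited tables, and all 10 were found in each of the 6 tables. The set was chosen by a measured value, the large difference in *SMTN* between the diets at 16 weeks peripartum (wkpp). Values of that comparison are therefore given below as a description without a test.

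Smooth muscle cells form the contractile layer of arteries and veins, and pericytes wrap the capillaries. In adipose tissue both lie in the vessel wall around the fat cells. Contraction starts when calcium activates myosin light chain kinase (*MYLK*), which switches on the smooth muscle myosin motor (*MYH11*). The motor pulls on actin filaments made of the vascular and enteric smooth muscle actins (*ACTA2* and *ACTG2*). Leiomodin 1 (*LMOD1*) helps actin filaments to form, transgelin (*TAGLN*), calponin 1 (*CNN1*) and smoothelin (*SMTN*) bind them, and all are used as markers of contractile smooth muscle. *PDGFRB* is the platelet-derived growth factor receptor that pericytes need to be recruited to vessels, and *RGS5* is a regulator of G protein signalling used as a pericyte marker.

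RNA was sequenced from subcutaneous adipose tissue of primiparous Holstein cows, taken from the dewlap, in 15 libraries of 5 groups with 3 libraries each. By its labels the -4 wkpp group was sampled a month before calving, before the diet experiment. The study states that the diets also began at -4 wkpp. The MNEB groups (moderate negative energy balance) received the high-energy (HE) diet and the SNEB groups (severe negative energy balance) the low-energy (LE) diet, each sampled at 1 and at 16 wkpp. The names MNEB and SNEB follow the study, whereas the labels give the diet, and the 2 are matched here from the comparisons of the study. Diet and energy balance are therefore treated as 1 contrast, and the -4 wkpp libraries serve as the reference for both. The study sequenced 3 cows of each energy balance group, those with the more extreme balance at 1 wkpp, so the groups are not a sample of all its cows. The cow behind each library was not known here, and p-values measure the spread between libraries of a group.

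The reads of each library were recovered as whole numbers from the deposited mean normalised counts. The libraries of a group are named a, b and c from the deepest to the shallowest. Normalised reads are reads divided by a size factor of the library, counted either on exons or on the whole gene with its introns. Levels of different genes are not compared, since no gene length of the build was at hand. Reads on the exons of genes ranged from 7004218 to 13203512 in the 9 libraries of -4 wkpp and SNEB, and from 1888071 to 6895125 in the 6 MNEB libraries. Synthetic spike-in RNAs, added to the libraries by the study, took 0.0849% to 0.706% of the assigned exonic reads in those 9 libraries and 1.26% to 9.86% in the 6 MNEB libraries. The share covers 81 of the 92 spike-ins. Depth here means reads assigned to exons, not reads sequenced. In the study's listing total reads overlapped between MNEB and the rest, whereas the aligned share was lower in every MNEB library. Depth in this sense, aligned share and spike-in share thus separate MNEB from all other libraries. Whether they contribute to a difference between MNEB and another group cannot be told apart from the diet. *PLIN1*, which coats lipid droplets, had reads in every library, from 2992 to 25467 normalised exonic reads. No threshold was set for it, so the adipose origin was not tested.

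The clearest pattern belonged to *SMTN* and *LMOD1*, which were high in all 6 MNEB libraries and low in the other 9. The 16 wkpp libraries that chose the set are among these, so the pattern is given as a description. *SMTN* stood at 1083, 623 and 682 normalised exonic reads at -4 wkpp, and at 2782, 3703 and 5734 in MNEB at 1 wkpp. In MNEB at 16 wkpp its values were 2776, 5770 and 3477. In SNEB it stood at 1018, 662 and 1065 at 1 wkpp and at 628, 408 and 549 at 16 wkpp. The lowest MNEB library thus lay above the highest of the other 9 libraries, as it did for whole gene reads, where MNEB ranged from 3961 to 7709 and the others from 643 to 1728. *LMOD1* stood at 1300, 516 and 527 normalised exonic reads at -4 wkpp, at 2476, 1906 and 2571 in MNEB at 1 wkpp and at 3083, 3948 and 2803 in MNEB at 16 wkpp. Its SNEB values were 1283, 505 and 810 at 1 wkpp and 631, 606 and 269 at 16 wkpp. Again the MNEB libraries did not overlap with the rest. Of 10433 genes with a mean of at least 10 normalised exonic reads, 1023 genes (9.81%) had every MNEB library above every other library. This share is given as background and is not a test of the members. None of the other 8 members had every MNEB library above the rest.

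**Figure D1:**
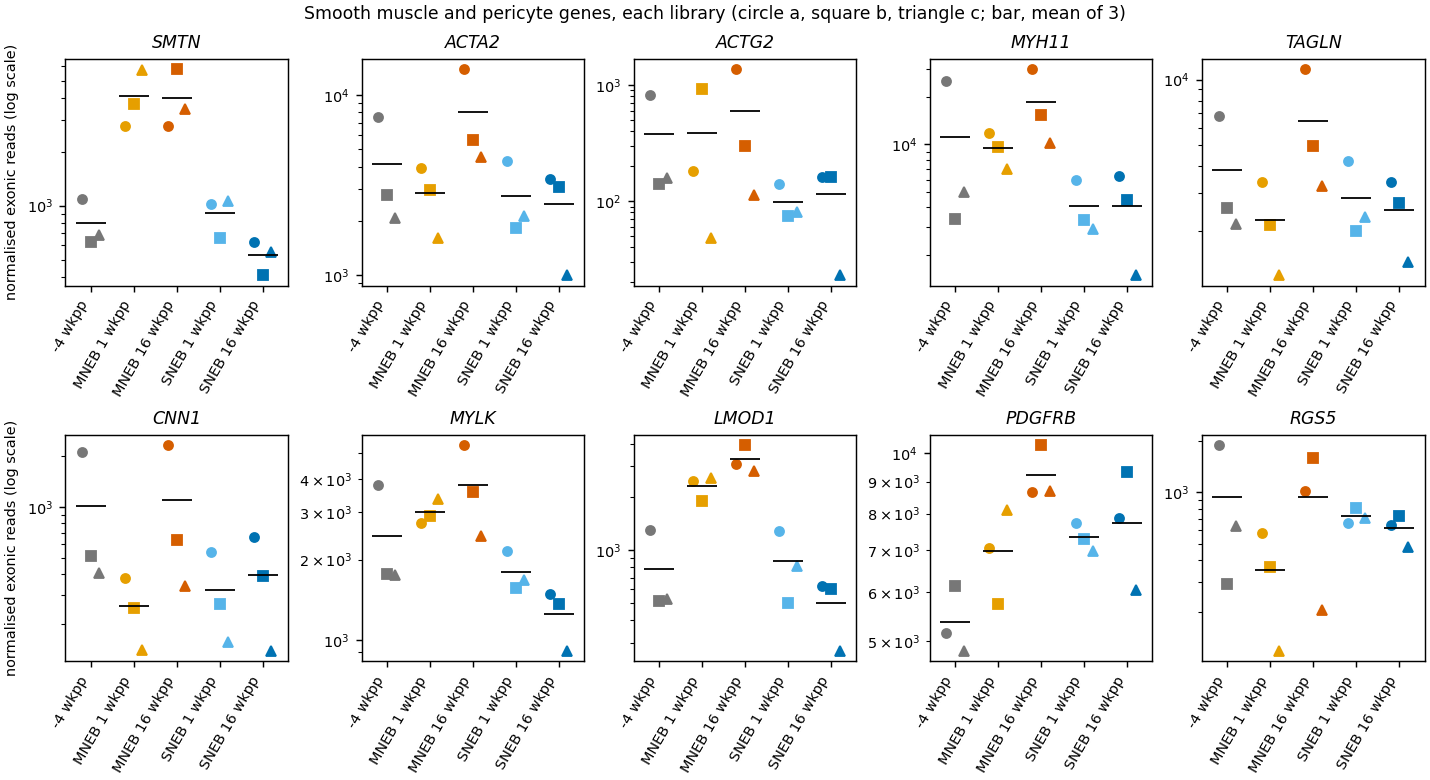
Normalised exonic reads (vertical log axes) of the 10 genes in each library, by group; circles, squares and triangles are libraries a, b and c, and bars are means of 3 libraries. *SMTN* and *LMOD1* sit higher in all 6 MNEB libraries than in the other 9, whereas *ACTA2*, *MYH11*, *TAGLN* and *CNN1* have their circle on top in all 5 groups.

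From -4 wkpp to MNEB at 1 wkpp, *SMTN* exonic reads were 4.99-fold higher in the limma fit (log2 difference of -4 wkpp minus MNEB -2.32, SE 0.298, adjusted p = 0.000565). The whole gene reads gave a 3.95-fold difference (log2 -1.98, SE 0.285, adjusted p = 0.0113). *LMOD1* exonic reads were 3.21-fold higher (log2 -1.68, SE 0.341, adjusted p = 0.0048), with a 3.28-fold difference in whole gene reads (log2 -1.72, SE 0.376, adjusted p = 0.035). A call required an adjusted p below 0.01 in both analyses, so 0 members were called, against 164 of 10351 genes (1.58%). At an unadjusted p below 0.05 in both analyses, 2 members passed, beside 2612 genes (25.2%), and limma without precision weights called 1 member, *SMTN*, among 237 genes. In exonic reads alone, 2 of the 10 members and 16.4% of all genes tested passed. With only the deepest MNEB library kept, the log2 difference of *SMTN* was -1.86, with an adjusted p of 0.0126 in exonic and 0.0606 in whole gene reads.

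The other members split in this comparison. *CNN1* had 2134, 508 and 403 normalised exonic reads at -4 wkpp and 377, 251 and 140 in MNEB at 1 wkpp. Its exonic values did not overlap, whereas its whole gene values did. The log2 difference in exonic reads of 1.53 (SE 0.634) did not pass the test (adjusted p = 0.0928), and it was 0.80 without library a of -4 wkpp. *TAGLN* (0.70, SE 0.459) and *ACTA2* (0.42, SE 0.47) had adjusted p-values of 0.275 and 0.53. *MYH11* (-0.28, SE 0.601), *MYLK* (-0.38, SE 0.298) and *PDGFRB* (-0.35, SE 0.214) had fitted differences of the other sign, none past the test. For *MYH11* the group means ran against that sign, with 11153 at -4 wkpp and 9464 in MNEB, and without library a of -4 wkpp its fitted difference was -1.15. By the fitted values 5 of the 10 members were lower and 5 higher at -4 wkpp, with a median log2 difference of 0.03 beside 0.05 over all genes.

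From -4 wkpp to SNEB at 1 wkpp, the log2 difference of *SMTN* was -0.21 (SE 0.271, adjusted p = 0.785) and that of *LMOD1* -0.18 (SE 0.433, adjusted p = 0.892). For both genes the values of the groups overlapped. None of the 10 members was called, whereas 3 of 10535 genes were (0.0285%). At an unadjusted p below 0.05 in both analyses 1 member passed, beside 1001 genes (9.5%), and limma without weights called 0 members. *PDGFRB* was lower at -4 wkpp without overlap but did not pass the test: its exonic values were 5148, 6137 and 4828 against 7722, 7295 and 6981 in SNEB (log2 -0.46, SE 0.164, adjusted p = 0.241). *ACTG2* was also narrowly apart on exons, from 142 to 829 at -4 wkpp and from 75 to 141 in SNEB (log2 1.53, SE 0.707, adjusted p = 0.374). Its difference was 0.64 without library a of -4 wkpp. In whole gene reads the groups overlapped for both *PDGFRB* and *ACTG2*.

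At 1 wkpp, SNEB was compared with MNEB. *SMTN* exonic reads were 4.29-fold lower in SNEB (log2 difference of SNEB minus MNEB -2.10, SE 0.297, adjusted p = 0.00799) and whole gene reads 3.22-fold lower (log2 -1.69, SE 0.226, adjusted p = 0.0466). No member passed in both analyses, and 0 of 10305 genes did (0%). In exonic reads alone *SMTN* passed, beside 2.03% of all genes tested. At an unadjusted p below 0.05 in both analyses 3 members passed, beside 1887 genes (18.3%), and limma without weights called 0 genes. Without MNEB library a, *SMTN* passed in both analyses, with a log2 difference of -2.33 in exonic reads, as did 454 genes where the full set gave 0. With library a as the only MNEB library, its log2 difference was -1.63 with an adjusted p of 0.158 in exonic and 0.22 in whole gene reads.

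Of the other members at 1 wkpp, *LMOD1* (log2 -1.49, SE 0.322, adjusted p = 0.0184), *MYH11* (log2 -1.23, SE 0.313, adjusted p = 0.0302) and *MYLK* (log2 -0.72, SE 0.203, adjusted p = 0.0429) were lower in SNEB without passing the threshold. Their exonic values did not overlap between the groups, but the share of all genes without overlap was not counted. In whole gene reads the log2 differences were -1.27, -1.11 and -0.37 (adjusted p = 0.126, 0.151 and 0.367). *MYH11* had 5923, 3346 and 2908 normalised exonic reads in SNEB and 11842, 9596 and 6953 in MNEB. *MYLK* ranged from 1570 to 2157 in SNEB and was higher, at 2728, 2918 and 3357, in all MNEB libraries. *ACTA2*, *TAGLN* and *CNN1* did not share this separation, with log2 differences of -0.03 (SE 0.401), 0.40 (SE 0.396) and 0.11 (SE 0.51). *ACTG2* had a lower fitted value in SNEB (log2 -1.16, SE 0.736, adjusted p = 0.308), but its values overlapped. Over the members the median log2 difference was -0.37, beside 0.07 over all genes tested.

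**Figure D2:**
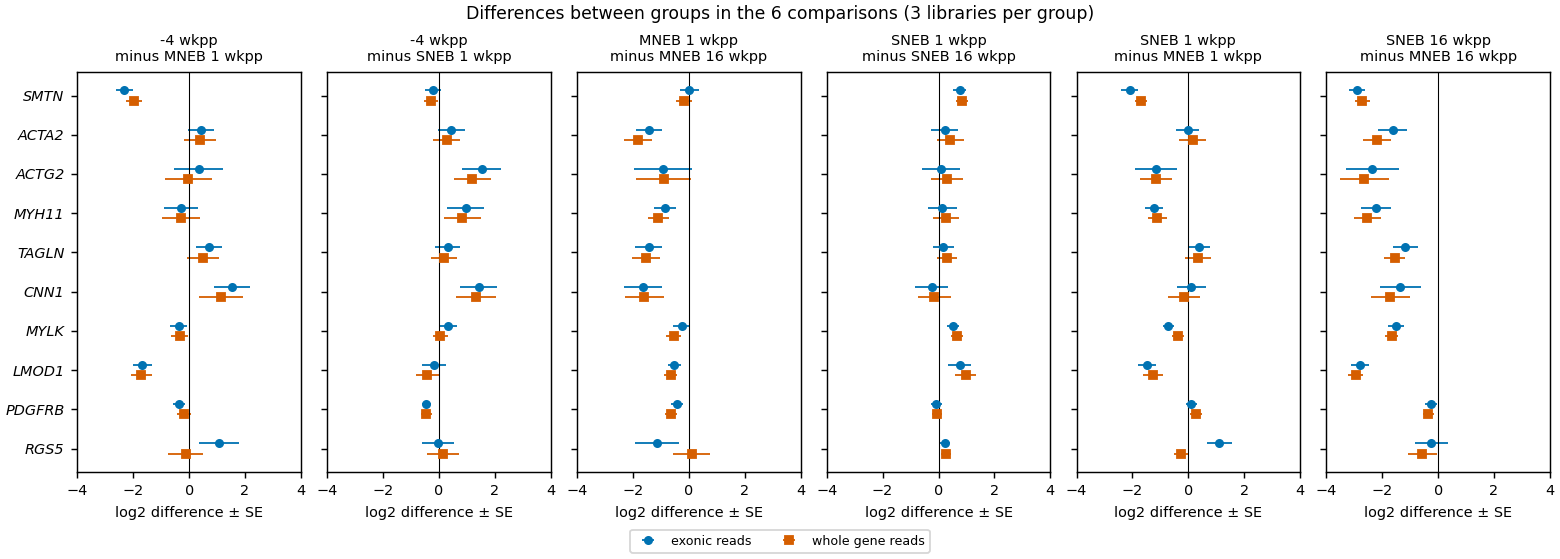
Log2 difference (horizontal axis, first group minus second) of each gene in the 6 comparisons, with its SE from the limma fit; circles are exonic and squares whole gene reads. *SMTN* and *LMOD1* lie left of 0 in the 3 comparisons of -4 wkpp or SNEB with MNEB, and the exonic and whole gene values of *RGS5* part in the 3 comparisons with MNEB at 1 wkpp.

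The contractile genes *ACTA2*, *MYH11*, *TAGLN* and *CNN1* varied widely between libraries of a group. Their highest group mean was 3.22-, 4.54-, 2.86- and 4.31-fold the lowest. Between single libraries the widest range within a group was 3.66-, 7.42-, 3.44- and 6.91-fold. Over all 15 libraries the range was 14.0-, 20.0-, 8.89- and 16.8-fold. *MYH11* did not overlap between SNEB and MNEB at either time, nor did *ACTA2* at 16 wkpp. *MYH11* stood at 25089, 3383 and 4988 normalised exonic reads at -4 wkpp, where 1 library stood far above the other two. In MNEB at 16 wkpp it stood at 29776, 15351 and 10180, and in SNEB at 16 wkpp at 6307, 4456 and 1490. *ACTA2* stood at 7544, 2789 and 2059 at -4 wkpp, at 3924, 2977 and 1609 in MNEB at 1 wkpp and at 13896, 5631 and 4517 in MNEB at 16 wkpp. Its SNEB values were 4304, 1828 and 2132 at 1 wkpp and 3414, 3066 and 993 at 16 wkpp. *CNN1* stood at 2339, 632 and 339 in MNEB at 16 wkpp, at 542, 266 and 156 in SNEB at 1 wkpp and at 660, 389 and 139 in SNEB at 16 wkpp. In each of the 5 groups the deepest library held the highest value of *ACTA2*, *MYH11*, *TAGLN* and *CNN1*. That order was chosen for description after the values were seen. It held for 4 of the 10 members and for 49 of 10433 genes (0.47%). The part of depth in it was not tested.

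*TAGLN* followed *ACTA2* across the 15 libraries (Pearson r = 0.964 of log2 normalised exonic reads) and *CNN1* followed *TAGLN* (r = 0.927). *SMTN* had r = 0.924 with *LMOD1* and r = 0.777 with *MYLK*, but 0.0173 with *CNN1* and 0.182 with *TAGLN*. *MYLK* had r = 0.917 with *MYH11*. These values describe 15 libraries that share 5 groups and differ in depth. *ACTG2* was the most variable member, at 181, 931 and 48 in MNEB at 1 wkpp, a 19.5-fold range that rests on 13 exonic reads in library c and was 6.37-fold in whole gene reads, and at 1365, 301 and 114 in MNEB at 16 wkpp. In SNEB it ranged from 23 to 160 over both times. *ACTA2* and *ACTG2* encode nearly identical proteins, and how many reads fit both genes was not measured.

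Genes whose pattern came nearest to that of *SMTN*, among 7994 genes with a mean of at least 100 normalised exonic reads, were *RASGRP2* (r = 0.983), *SPEG* (0.969), *ARHGEF17* (0.955), *ACTN4* (0.954) and *LLGL2* (0.951). *SPEG*, a kinase of striated and smooth muscle, ranged from 2596 to 3847 in MNEB and from 332 to 691 elsewhere. *ACTN4*, an actin crosslinker of many cell types, ranged from 10519 to 12453 in MNEB and from 3281 to 5703 elsewhere. Nearest to *MYH11* were *AKAP6* (r = 0.941), *NDRG4* (0.926), *DES* (0.92), *MYLK* (0.917) and *ACTA2* (0.887). *DES*, the muscle intermediate filament desmin, overlapped between MNEB (1250 to 8526) and the other libraries (414 to 6370).

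*PDGFRB* was the steadiest member, with a 2.13-fold range over all 15 libraries. Its means were 5371 ± 683 normalised exonic reads at -4 wkpp (SD, n = 3), 6965 ± 1197 and 9220 ± 937 in MNEB at 1 and 16 wkpp, and 7333 ± 372 and 7743 ± 1641 in SNEB at 1 and 16 wkpp. Ordered by their means, neighbouring groups overlapped. Its log2 difference between SNEB and MNEB at 1 wkpp was 0.11 (SE 0.202, adjusted p = 0.737).

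*RGS5* gave a different picture on exons and on the whole gene. On exons it stood at 576, 367 and 118 normalised reads in MNEB at 1 wkpp and at 662, 810 and 712 in SNEB at 1 wkpp, so that SNEB was higher without overlap (log2 1.10, SE 0.444, adjusted p = 0.124). That difference was 1.75 without MNEB library a and 0.60 without MNEB library c. On the whole gene the values were 762, 1370 and 1122 in MNEB and 756, 968 and 789 in SNEB, and the log2 difference was -0.27 (SE 0.259, adjusted p = 0.558). In libraries b and c of MNEB at 1 wkpp only 28% and 10.3% of the *RGS5* reads lay on exons, from 485 and 311 reads in all. At the other times its exonic level was 1898, 290 and 639 at -4 wkpp, 1026, 1601 and 206 in MNEB and 648, 727 and 480 in SNEB at 16 wkpp. The median exonic share over the 15 libraries was 82.6%, and the next lowest was 51.5% at -4 wkpp.

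**Figure D3:**
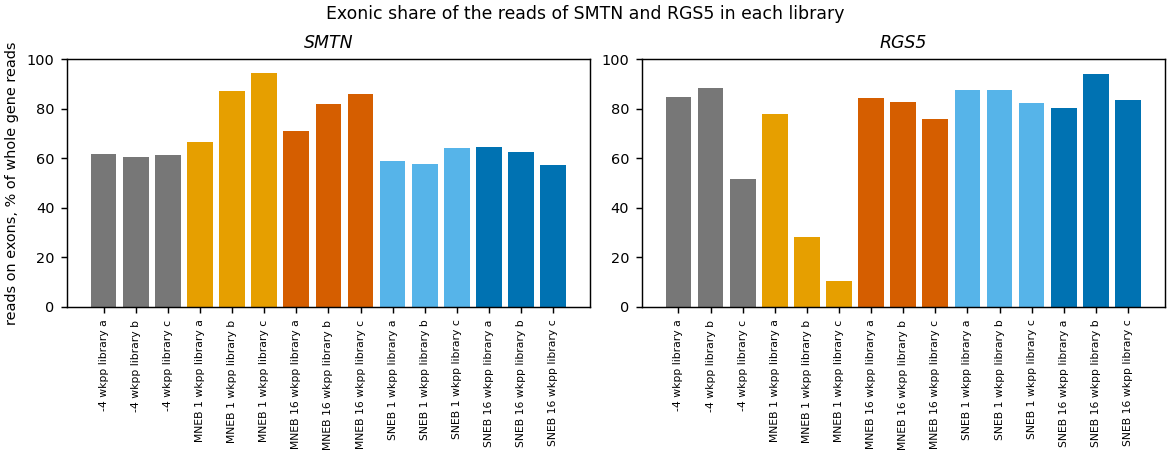
Reads on exons as a percentage of the whole gene reads of *SMTN* and *RGS5* (vertical axis), 1 bar for each library. *SMTN* reaches 94.4% in library c of MNEB at 1 wkpp, where *RGS5* falls to 10.3%.

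The exonic share of *SMTN* moved the other way. It was 66.5%, 87.3% and 94.4% in MNEB at 1 wkpp and 71%, 82% and 86% in MNEB at 16 wkpp, against 57.4% to 64.7% in the other 9 libraries. A higher share in MNEB was not particular to *SMTN*: that of *PDGFRB* was 76.7%, 87.5% and 91.1% in MNEB at 1 wkpp and 83%, 78.7% and 79.3% in MNEB at 16 wkpp, and at most 75% elsewhere. In library c of MNEB at 1 wkpp the share was also the highest of the 15 libraries for *LMOD1* (91.3%) and *MYLK* (77.7%). Reads of *SMTN* outside its exons, normalised in the same way, were 1442, 565 and 336 in MNEB at 1 wkpp and 710, 513 and 546 in SNEB at 1 wkpp. Outside the exons the groups at 1 wkpp thus overlapped. At 16 wkpp they did not, with 1147, 1388 and 705 in MNEB and 310, 241 and 404 in SNEB. Library c of MNEB at 1 wkpp held 93 *SMTN* reads outside exons and 1561 on them.

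By group means of normalised exonic reads, 9 of the 10 members were highest in MNEB at 16 wkpp, and *SMTN* was highest in MNEB at 1 wkpp. Ordered by their means, neighbouring groups overlapped in most cases. The exceptions were *SMTN* between MNEB at 16 wkpp and SNEB at 1 wkpp, *MYH11* between MNEB at 1 wkpp and SNEB at 16 wkpp, *MYLK* between the SNEB groups, and *LMOD1* between the MNEB groups and between MNEB and SNEB at 1 wkpp.

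Within each diet the time points were compared next, with 16 wkpp libraries that also served to choose the set, so the members' values are given without a test. In MNEB 9 of the 10 members had lower fitted exonic values at 1 than at 16 wkpp. *ACTA2* (log2 difference of 1 minus 16 wkpp -1.41, SE 0.458), *TAGLN* (-1.44, SE 0.482) and *CNN1* (-1.65, SE 0.676) had the largest differences. Without library a of MNEB at 16 wkpp the 3 differences were -0.92, -0.94 and -0.87. *TAGLN* stood at 3369, 2130 and 1253 at 1 wkpp and at 11135, 4927 and 3233 at 16 wkpp. *SMTN* did not share this difference (0.02, SE 0.339). Over all genes limma called 0 of 9739 (0%), with 783 genes (8.04%) at an unadjusted p below 0.05 in both analyses, and limma without weights also called 0 genes. The median log2 difference of the members was -0.89, beside 0.00 (-0.00431) over all genes.

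In SNEB cows the fitted exonic values of 8 members were higher at 1 than at 16 wkpp, although the group means of *ACTG2* (98.4 and 115) and *MYH11* (4059 and 4084) ran the other way. *SMTN* (log2 0.76, SE 0.239) and *MYLK* (0.52, SE 0.223) did not overlap between the times, and *LMOD1* (0.75, SE 0.411) did. Here too the share of all genes without overlap was not counted. Again 0 of 10433 genes were called by limma (0%), with 470 genes (4.5%) at an unadjusted p below 0.05 in both analyses and 0 calls without weights. The change from 1 to 16 wkpp was then compared between the diets in a fit of the 12 libraries after calving. This contrast holds the 16 wkpp values that chose the set, so no member is tested in it. Over all genes limma called 0 of 10278 (0%), beside 281 genes (2.73%) at an unadjusted p below 0.05 in both analyses.

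At 16 wkpp all 10 members had lower fitted exonic values in SNEB than in MNEB. The fitted log2 differences of SNEB minus MNEB, given as a description, were -2.90 for *SMTN* (SE 0.275), -2.79 for *LMOD1* (SE 0.32), -2.35 for *ACTG2* (SE 0.958), -2.21 for *MYH11* (SE 0.539) and -1.63 for *ACTA2* (SE 0.518). *MYLK* (-1.51), *CNN1* (-1.35) and *TAGLN* (-1.18) lay between these and the pericyte genes *PDGFRB* (-0.27) and *RGS5* (-0.24). *MYLK* stood at 1492, 1359 and 912 in SNEB and at 5351, 3560 and 2440 in MNEB. In whole gene reads the differences ran from -2.94 for *LMOD1* to -0.35 for *PDGFRB*. The exonic values of 5 members were apart: *SMTN*, *ACTA2*, *MYH11*, *MYLK* and *LMOD1*. How many of all genes were apart was not counted, in this or the other comparisons of groups, so that number has no background. At an unadjusted p below 0.05 in both analyses 2646 genes (26.2%) passed here. Over all genes 363 of 10097 met the call rule (3.60%), and nothing is read from the calls of members, since this comparison chose the set. With the deepest MNEB library alone, the log2 difference of *SMTN* was -2.40 and that of *LMOD1* -2.70.

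Other contractile and mural genes were counted from lists. Of 29 tested genes of the contractile list, 2 rose from -4 wkpp to MNEB at 1 wkpp, where 1.58% of all genes were called: *TPM1*, a tropomyosin that lies along actin (log2 difference of -4 wkpp minus MNEB -2.47, SE 0.29, adjusted p = 0.000395 in exonic reads), and *SPEG* (-2.30, SE 0.211, adjusted p = 0.00013). Of 19 tested genes of the mural list, 1 fell: *PDGFRA*, a growth factor receptor better known from fibroblasts and fat cell precursors (2.41, SE 0.209, adjusted p = 0.000113). Of the contractile list 14 of 29 genes had lower fitted values at -4 wkpp, with a median log2 difference of 0.01 beside 0.05 over all genes. The calls were lost without any 1 library of -4 wkpp, when 0 genes were called. At 16 wkpp 5 contractile genes met the call rule, beside 3.60% of all genes, and all were lower in SNEB than in MNEB. They were led by *SPEG* (-3.07), *ITGA7* (-2.78), *TPM1* (-1.99) and *MRVI1* (-1.94). Calls of either list at 16 wkpp are given as a description, since that comparison chose the set. Leaving out any 1 library cut the calls over all genes there from 363 to between 32 and 105, and leaving out both shallow MNEB libraries gave 0. *ITGA7* is a laminin-binding integrin of muscle. The median log2 difference of that list was -0.89, beside 0.03 over all genes.

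Of the mural list at 16 wkpp, 4 genes met the rule and were lower in SNEB: *CSPG4* (-1.98, SE 0.363), a pericyte proteoglycan, *PDGFA* (-1.87), *EDNRA* (-1.54), the endothelin receptor of smooth muscle, and *ANGPT1* (-1.43). The angiotensin receptor gene *AGTR1* met it with a higher value in SNEB (2.76, SE 0.2). The median of this list was -1.15. In the other 4 comparisons, from -4 wkpp to SNEB at 1 wkpp, within each diet from 1 to 16 wkpp and between the diets at 1 wkpp, 0 genes of either list were called. The medians of the contractile list there were 0.02, -0.39, 0.29 and -0.16, for -4 wkpp against SNEB, MNEB 1 against 16 wkpp, SNEB 1 against 16 wkpp and SNEB against MNEB at 1 wkpp.

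Summed markers of other cell types were set beside these values. In bulk tissue fewer cells of a type and less RNA per cell cannot be told apart. The summed level of 6 fibroblast markers was 2988 to 7493 in MNEB at 1 wkpp and 4386 to 9099 at 16 wkpp, below the 9389 to 33541 of all other libraries. The summed level of 8 macrophage markers was 8935 to 16611 at -4 wkpp, 2594 to 9603 in MNEB at 1 wkpp and 11594 to 25327 in SNEB at 1 wkpp. At 16 wkpp it was 2735 to 3680 with the high-energy and 21836 to 27321 with the low-energy diet. The groups at -4 wkpp and MNEB at 1 wkpp thus overlapped, whereas the diets did not overlap at either time. For 12 endothelial markers the sum was 23235 to 30289 at -4 wkpp and 42961 to 80882 in MNEB at 1 wkpp, which overlapped with the 36031 to 45187 of SNEB at 1 wkpp, and at 16 wkpp it was 33910 to 45758 with the high-energy and 28053 to 31295 with the low-energy diet. *VWF*, von Willebrand factor, accounted for 15593 to 21672 and 10831 to 12010 of these sums, and 6 of the 12 markers had lower fitted values in SNEB at 16 wkpp (median log2 -0.12). For 9 adipocyte markers it was 33795 to 40262 at -4 wkpp. The same sum at 1 wkpp was 17653 to 25143 with the high-energy and 36866 to 41896 with the low-energy diet, and at 16 wkpp the ranges were 8465 to 28033 and 22313 to 29447. *PLIN1* accounted for 6571 to 10627 and 20036 to 25467 of the sums at 1 wkpp, and *CIDEC* (1167 to 1641 and 3685 to 6283), *LEP* (57.3 to 176 and 420 to 629) and *CEBPA* (173 to 414 and 422 to 784) were likewise higher in SNEB without overlap. *PNPLA2* was apart the other way, with 2652 to 2944 in MNEB and 1621 to 2429 in SNEB, and *LIPE*, *GPD1*, *PPARG* and *CIDEA* overlapped. Of 7 tested adipocyte markers 3 were lower in SNEB at 1 wkpp by the fitted values (median log2 0.06). The part of these markers in the differences of *SMTN* and *LMOD1* was not tested.

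Skeletal muscle was checked since biopsies can take some along. The summed level of 14 of its markers was 1421 to 4408 in MNEB at 1 wkpp, 2024 to 4146 in MNEB at 16 wkpp and 284 to 546 in the other groups. *TNNT3*, fast troponin T, made up most of that sum, with 1170 to 3938 in MNEB. *ACTA1*, skeletal actin, ranged from 0 to 94 normalised exonic reads in MNEB and from 0 to 15 elsewhere. In MNEB the myosins *MYH1* and *MYH7* reached 51 and *MYH2* reached 37, troponin I *TNNI2* 21, creatine kinase *CKM* 5, myosin light chain *MYL1* 18 and myoglobin *MB* 11. *TNNT1* was at 0 in MNEB at 16 wkpp, *TNNI1* and *MYH1* in SNEB at 1 wkpp and *TNNI1* in SNEB at 16 wkpp. The part of skeletal muscle in the differences was not tested. Erythrocyte markers summed to between 15 and 338 over all libraries.

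The level of *SMTN* followed the spike-in share over the 15 libraries (r = 0.903 of the log2 values), as did that of *LMOD1* (0.748) and *MYLK* (0.597), whereas *PDGFRB* (0.212), *MYH11* (0.391), *ACTA2* (0.0834), *TAGLN* (-0.115), *CNN1* (-0.235) and *RGS5* (-0.434) had smaller values or the other sign. These correlations describe libraries in which diet and spike-in share go together. Within MNEB at 1 wkpp the spike-in share was 1.34%, 5.87% and 9.86% in libraries a, b and c, where *SMTN* stood at 2782, 3703 and 5734. Within MNEB at 16 wkpp it was 1.26%, 3.61% and 3.02%, where *SMTN* stood at 2776, 5770 and 3477. In both MNEB groups the order of *SMTN* was thus that of the spike-in share. At -4 wkpp and in SNEB at 1 and 16 wkpp it was not. There library a had the lowest share (0.243%, 0.216% and 0.0849%), but *SMTN* was lowest in library b (623, 662 and 408). *LMOD1* did not keep the order of the share in MNEB at either time, with 2476, 1906 and 2571 at 1 wkpp and 3083, 3948 and 2803 at 16 wkpp.

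**Figure D4:**
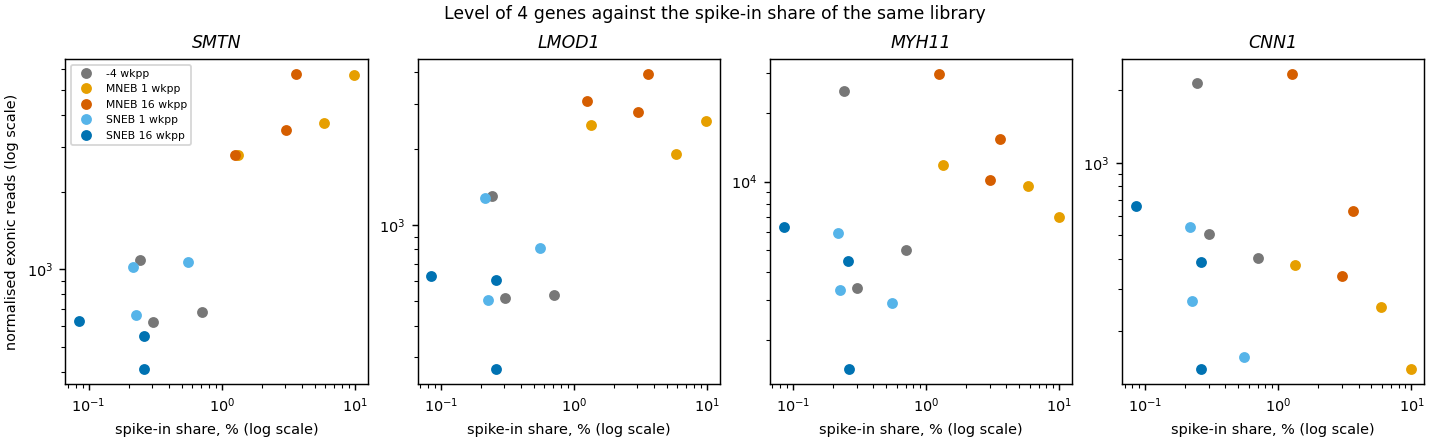
Normalised exonic reads of 4 genes (vertical log axes) against the share of assigned exonic reads taken by spike-ins (horizontal log axes, percent), 1 point for each of 15 libraries, coloured by group. The 6 MNEB libraries lie at 1.26% or more and hold the highest *SMTN* and *LMOD1* values, whereas *CNN1* is spread over its range on both sides.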

How the data were processed

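Total RNA of 15 libraries had been sequenced with a stranded, ribosome-depleted protocol. Per the submitters' notes, reads were demultiplexed with bcl2fastq 2.15.0, trimmed with Cutadapt 1.3, mapped to bosTau8 with TopHat2 and counted with HTSeq, on exons and on whole genes. The values used are the mean normalised counts that the authors deposited for each comparison of 6 libraries (DESeq2 size factors), one per gene and analysis. The authors' fold changes, standard errors, test statistics and p-values in the same 6 tables were not used.

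Each mean is a sum of whole reads weighted by library. Since the means carry full numerical precision, the weights and the reads of every library were solved for by lattice reduction: for 13869 of 13896 genes on exons and 13832 on whole genes, with a largest relative misfit of 6.8e-15. Reads were left out for 27 and 64 genes, mostly of very high counts, among them collagen genes. Libraries could be assigned to a group but not to an animal or a replicate number.

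Differences were tested with limma 3.58.1 (R 4.3.3) with voom precision weights, on the 6 libraries of each comparison, with the recovered size factors and genes of at least 10 mean normalised reads. P-values were adjusted by the Benjamini-Hochberg method over all genes tested. A call required an adjusted p below 0.01 in exonic and whole gene reads with the same sign. The study likewise kept genes found in both analyses at that threshold, and the condition on the sign was added here. The method was tested on simulated data. Levels over 15 libraries use a median-of-ratios size factor. The named genes were the 10 members, from each list the 4 called genes with the largest log2 difference in each direction, defining markers of other cell types, and the 5 genes most correlated with *SMTN* and *MYH11*. The members and lists were chosen with earlier results of these data known. Adiponectin was not analysed here. No sequences are shown, since no sequence of the build was at hand.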

Additional observations from a re-analysis of the deposited data

Results flagged for a closer look

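The spike-in RNAs, which no comparison used, differed between groups. The lowest share in a MNEB library was 1.26% of the assigned exonic reads, above the highest share at -4 wkpp, 0.706%. The difference was not tested.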

How the results depend on the processing

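The number of members called moved from 0 in the comparison of -4 wkpp with MNEB at 1 wkpp to 2 in exonic reads alone, to 2 at an adjusted p below 0.05, to 1 with total reads on genes as library size, to 1 without weights at a pseudocount of 1 or of 4, and to 2 in a single fit of 15 libraries. Over all genes these settings called 1726, 1036, 221, 237, 239 and 1042, where the main analysis called 164. Leaving out each library in turn gave 0 members, and 0 to 183 genes. Between SNEB and MNEB at 1 wkpp it moved from 0 to 1 in exonic reads alone, at an adjusted p below 0.05 and in the single fit (212, 48 and 301 genes, against 0), and leaving out each library gave 0 to 1 members, the 1 without MNEB library a, beside 454 genes. Members were not counted in comparisons that hold 16 wkpp libraries, since the set was chosen from these. Over all genes, SNEB against MNEB at 16 wkpp moved from 363 calls to 1065 in exonic reads alone, to 1336 at an adjusted p below 0.05 and to 0 with both shallow MNEB libraries left out, a setting chosen after seeing the data, where the single MNEB library is assumed to vary like the others. Leaving out each library gave 32 to 105 genes there. From -4 wkpp to SNEB at 1 wkpp 0 members were called in every setting, and within each diet from 1 to 16 wkpp, and for the contrast of the change with time, 0 genes were. The highest group mean was that of MNEB at 16 wkpp for 9 of 10 members, for 8 by total reads on genes and for 10 by whole gene reads. The cause of these moves was not tested. With both MNEB groups reduced to library a, MNEB at 1 against 16 wkpp has no residual spread and was not run. No paired analysis was possible because the recovered libraries carry no animal or replicate number.

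The 3 libraries a group, and depths down to 1888071 exonic reads in MNEB, limit the precision. In library c of MNEB at 1 wkpp *RGS5* rested on 32 and *ACTG2* on 13 exonic reads.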
